A study of Mus musculus with 12 samples.

Results

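The mitochondrial carriers of the Slc25 family were taken as every gene of the deposited count table whose symbol starts with Slc25a, together with Ucp1, Ucp2 and Ucp3, which belong to the same family by sequence. This gave 50 genes of 33352 in the table, and the rule used no measured value. Poly(A) RNA had been sequenced from 12 libraries of wild-type CD-1 male mice aged 13 weeks, an outbred stock, whose aorta and surrounding perivascular fat had been cut up and dissociated with collagenase D and dispase. Flow cytometry then divided the cells into SMC2, SMC1, Intermediate and Progenitor, with 3 libraries of each. No group carried an engineered allele or a treatment. The surface markers that define each gate are not given in the sources used here. Genes that served the sort therefore cannot be told from genes that differ for other reasons. The study's design text sets the populations against each other, and every comparison below is of that kind. Replicate numbers run from 1 to 3 in each population without a statement of what they mark, so p-values describe the spread between these libraries only.

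Mitochondrial carriers are small proteins of the inner mitochondrial membrane that pass metabolites between the cytosol and the matrix. The ADP/ATP translocases and the phosphate carrier feed ATP synthase and export its product. Other members move citrate, malate, amino acids, acylcarnitines, cofactors and nucleotides. Ucp1, the uncoupling protein of brown and beige fat cells, lets protons back across the membrane and generates heat. Thermogenic fat, including the fat around vessels, is usually recognised by it. Messenger RNA levels do not report transport activity.

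Of the 50 genes, 47 had enough counts to be tested and 3 did not. Slc25a41, Slc25a48 and Slc25a54 reached at most 34, 5 and 12 counts in the 3 libraries of any population. Levels are given in CPM, in which counts are divided by the library's total after TMM scaling, and a log2 change is called at an adjusted p below 0.05 (edgeR quasi-likelihood test, Benjamini-Hochberg over 19016 genes). The populations are mixtures of cells, so fewer cells of a type and less RNA per cell cannot be told apart. Libraries held 13258631 to 22647175 counts. Genes of a smooth muscle marker list summed to 21342 to 30100.4 CPM in SMC2 and 31978 to 38202 CPM in SMC1, against 536 to 682 CPM in Intermediate and 238 to 574 CPM in Progenitor. A fibroblast list had the opposite distribution, with at most 1783 CPM in a smooth muscle library and at least 40543 CPM in an Intermediate or Progenitor library. A list of 10 mature adipocyte genes summed to 2239.7 to 2545 CPM in SMC2 and 358 to 479.5 CPM in SMC1. Of the 10, 9 were higher on average in SMC2, and none was at 0 in all 3 libraries of either population. Its sum was 56.0 to 81.8 CPM in Intermediate and 118 to 140.3 CPM in Progenitor. Among its genes, Adipoq averaged 90.2 CPM in SMC2, 1.23 CPM in SMC1, 0.483 CPM in Intermediate and 4.39 CPM in Progenitor.

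SMC2 held the most carrier RNA. Over the 50 genes the summed level was 4605, 3785 and 3269 CPM in the SMC2 libraries, 2412, 2189 and 2268 CPM in the SMC1 libraries, 2506, 2052 and 1938 CPM in the Intermediate libraries, and 1982, 1805 and 1815 CPM in the Progenitor libraries. Every SMC2 library lay above every library of the other populations. As a share of raw counts, which uses no scaling factor, the family took 0.411 to 0.475% in SMC2, 0.218 to 0.234% in SMC1, 0.189 to 0.207% in Intermediate and 0.171 to 0.192% in Progenitor. Most of the difference lay in 4 genes. Without Slc25a3, Slc25a4 and Slc25a5, the sums were 1343 to 1747 CPM in SMC2, 1094 to 1204 CPM in SMC1, 1228 to 1504 CPM in Intermediate and 1029 to 1106 CPM in Progenitor. With Slc25a25 also removed, SMC2 at 1079 to 1382 CPM overlapped SMC1 at 1067 to 1179.8 CPM and Intermediate at 1095 to 1396 CPM, and it stayed above Progenitor at 967 to 1030.1 CPM.

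**Figure D1:**
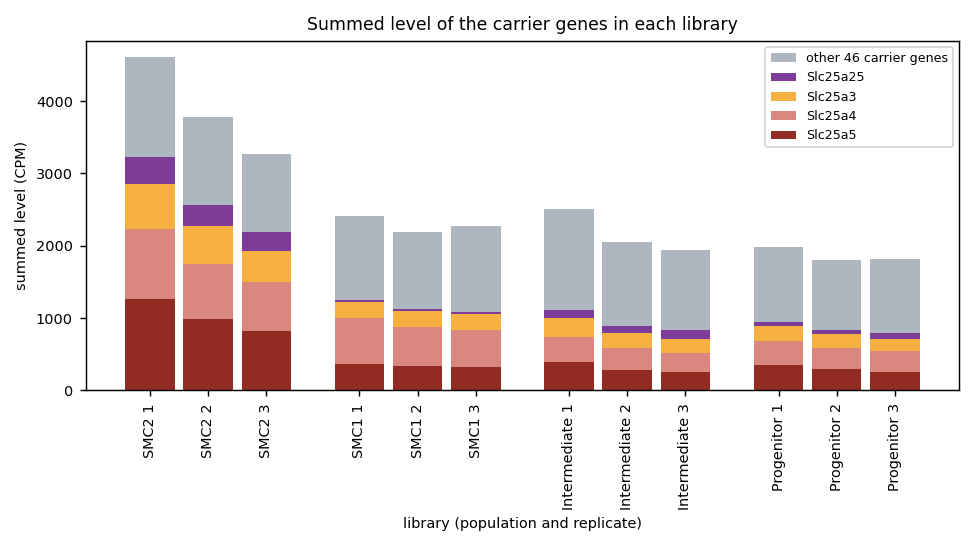
Summed level of the 50 carrier genes in CPM (vertical axis) in each of the 12 libraries (horizontal axis), each bar divided into Slc25a5, Slc25a4, Slc25a3, Slc25a25 and all other carriers. The 3 SMC2 bars reach 3269 to 4605 CPM, and the segments of the 4 named genes account for most of their height above the other populations.

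In the comparison of SMC2 with SMC1, 12 of the 47 tested carriers were higher in SMC2 and 7 were lower, against 16.5% of all tested genes higher and 18.1% lower. By role, 5 of 8 tested adenine nucleotide and phosphate carriers rose, as did 3 of 6 uncoupling proteins and relatives, 3 of 10 amino acid and carnitine carriers and 1 of 12 cofactor, nucleotide, metal and glutathione carriers. Of these rises, those of Slc25a4, Slc25a12, Slc25a24, Ucp1 and Ucp3 lost the call on leaving out 1 library, with the values given for each gene. None of the 4 di- and tricarboxylate carriers was called. Over the 47 genes the median log2 change was 0.08, beside -0.00 over all genes. Over all genes, 3139 were called higher and 3439 lower, and under upper-quartile scaling 3729 higher and 2843 lower, with 16 carriers higher and 6 lower. Marker lists of other cell types also differed between these populations. Endothelial genes summed to 40.5 to 101 CPM in SMC2 and 250.2 to 310.3 CPM in SMC1, with all 6 higher on average in SMC1. Fibroblast genes summed to 396 to 811 CPM in SMC2 and 1013 to 1783 CPM in SMC1, with 7 of 8 higher in SMC1. Schwann and neural genes summed to 47.5 to 95.5 CPM in SMC2 and 16.8 to 30.2 CPM in SMC1, with 5 of 6 higher in SMC2. No endothelial or Schwann and neural gene was at 0 in all 3 libraries of either population, and the part of these lists in the changes of the carriers was not tested.

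Intermediate against Progenitor gave 9 carriers higher and 3 lower, against a background of 12.7% higher and 9.46% lower. The risers by role were 3 of 10 amino acid and carnitine carriers and 3 of 7 members without a settled substrate. They also included 2 of 12 cofactor, nucleotide, metal and glutathione carriers and 1 of 8 adenine nucleotide and phosphate carriers. No uncoupling protein or relative rose, and Slc25a30 fell. The median log2 change was 0.24 for the carriers and 0.08 over all genes. Over all genes, 2419 were called higher and 1799 lower. Under upper-quartile scaling that split turned to 1593 higher and 2473 lower, while 8 carriers were higher and 4 lower. Mesothelial genes summed to 160.3 to 391 CPM in Intermediate and 37.9 to 65.3 CPM in Progenitor, with 6 of 7 higher on average in Intermediate and none at 0 in all 3 libraries of either population. Intermediate replicate 3 had the highest sum. Of the mature adipocyte genes, whose sums are given above, 9 of 10 were higher on average in Progenitor. The part of either list in the changes of the carriers was not tested.

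**Figure D2:**
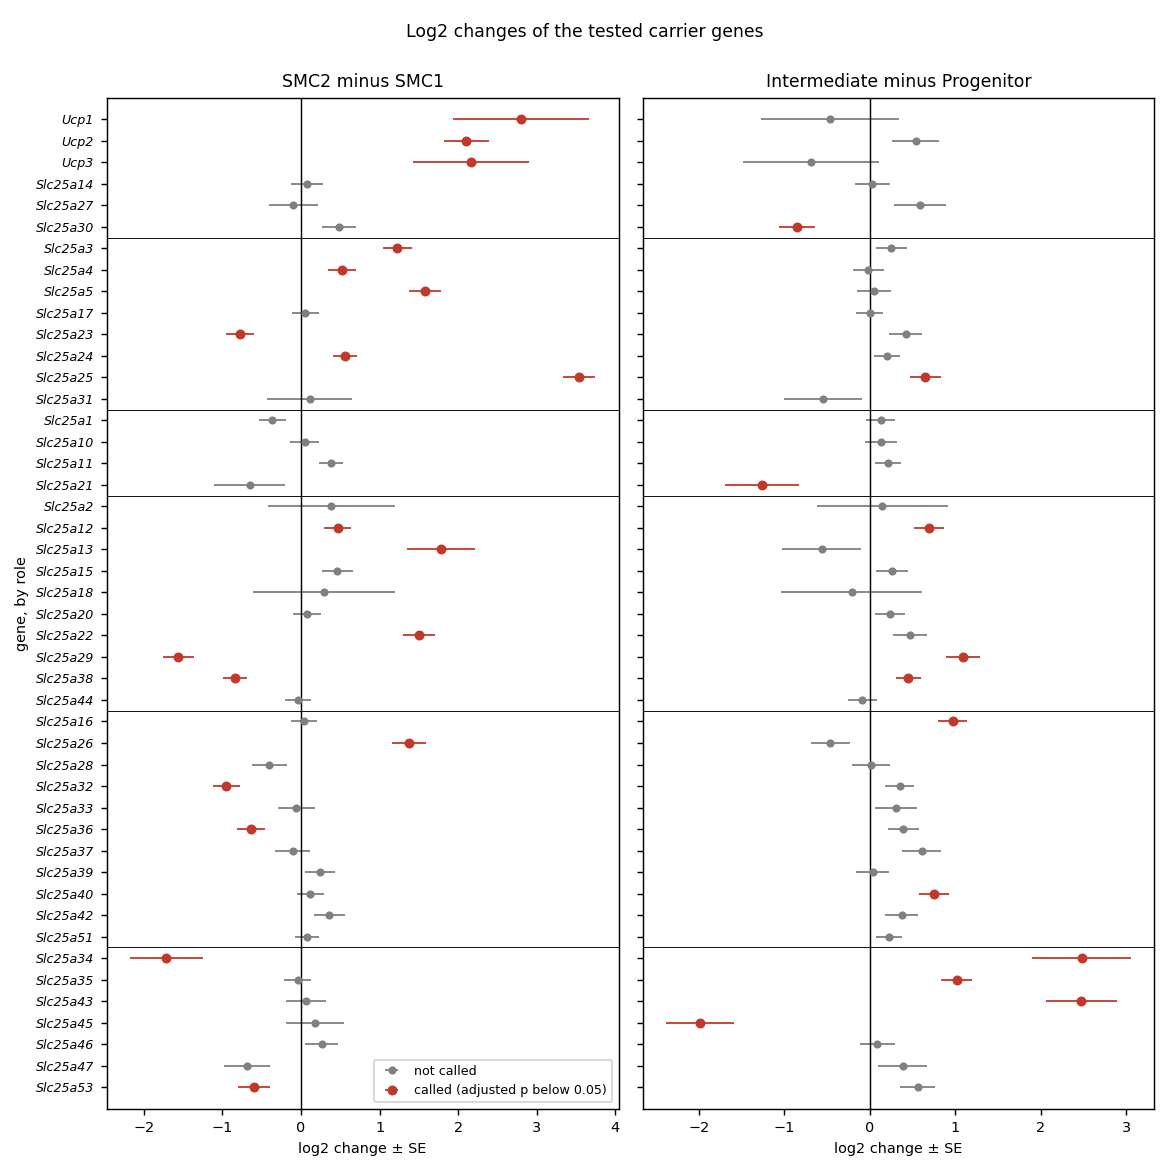
Log2 changes of 46 tested carriers (horizontal axis, points with standard errors) for SMC2 minus SMC1 and for Intermediate minus Progenitor, one gene on each line, with called changes marked. In SMC2 minus SMC1, Slc25a25 at 3.54 lies farthest to the right, and in Intermediate minus Progenitor Slc25a34 and Slc25a43 do, at 2.48 and 2.47.

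Among the uncoupling proteins, Ucp1 was near the floor of detection everywhere. Its raw counts were 22, 21 and 16 in SMC2, 7, 0 and 1 in SMC1, 1, 12 and 6 in Intermediate, and 20, 4 and 7 in Progenitor. In CPM these were 1.01, 1.04 and 0.960 in SMC2, 0.356, 0 and 0.0586 in SMC1, 0.0621, 0.754 and 0.383 in Intermediate, and 0.911, 0.267 and 0.442 in Progenitor. All SMC2 libraries exceeded all SMC1 libraries, and the library with a count of 0 allows up to 0.140 CPM by counting error. The log2 change of SMC2 over SMC1 was 2.80 ± 0.87 (SE, adjusted p = 0.0161), but without SMC1 replicate 2 it was 2.17 (adjusted p = 0.0671), without SMC1 replicate 3 it was 2.46 (adjusted p = 0.0635), and without SMC1 replicate 1 it was 4.91 (adjusted p = 0.00245). Neither SMC2 nor SMC1 differed from Progenitor by a called amount (log2 change 0.85, adjusted p = 0.389, and -1.95, adjusted p = 0.0782). A list of 10 thermogenic adipocyte genes, Ucp1 among them, summed to 84.1 to 117 CPM in SMC2, 98.4 to 125 CPM in SMC1, 129.6 to 135 CPM in Intermediate and 20.5 to 29.4 CPM in Progenitor. Single genes made up most of some of these sums, with Dio2 at 120.6 CPM on average in Intermediate and Prdm16 at 93.6 CPM in SMC1. By gene, 7 of the 10 had a higher mean in SMC2 than in SMC1, and 9 of the 10, all but Dio2, had a higher mean in SMC2 than in Intermediate and than in Progenitor. None was at 0 in all 3 SMC2 libraries, and the part of these genes in the change of Ucp1 was not tested.

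Ucp2, a widely expressed relative that exports dicarboxylates from the matrix, was the abundant member of this group. It measured 108, 81.3 and 106 CPM in SMC2, 34.2, 13.6 and 20.8 CPM in SMC1, 152, 84.7 and 91.7 CPM in Intermediate, and 64.6, 72.7 and 88.7 CPM in Progenitor. SMC1 was the low population and overlapped none of the others, while SMC2, Intermediate and Progenitor overlapped. SMC2 exceeded SMC1 by 2.11 ± 0.29 log2 units (adjusted p = 1.96e-05). The log2 change of SMC1 was -1.72 ± 0.29 relative to Progenitor (adjusted p = 9.12e-05) and -2.26 ± 0.29 relative to Intermediate (adjusted p = 6.61e-06). SMC1 replicate 1, the highest SMC1 library for Ucp2, was also the highest for a leukocyte marker list, at 583 CPM against 128 and 136 CPM in the other SMC1 libraries. The fibroblast, endothelial, mesothelial, erythroid, mature adipocyte and Schwann and neural lists were also highest in this SMC1 library. The smooth muscle, thermogenic adipocyte and striated muscle lists were not. Without SMC1 replicate 1 the SMC2 minus SMC1 change was 2.51 (adjusted p = 1.67e-07). The part of these lists in the level of Ucp2 was not tested.

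Ucp3, which is known mainly from skeletal muscle and brown fat, had 19, 24 and 35 counts in SMC2, 1, 4 and 12 in SMC1, 2, 4 and 9 in Intermediate, and 7, 14 and 5 in Progenitor. Its level was 0.874, 1.19 and 2.10 CPM in SMC2, 0.0509, 0.187 and 0.703 CPM in SMC1, 0.124, 0.251 and 0.575 CPM in Intermediate, and 0.319, 0.933 and 0.316 CPM in Progenitor. SMC2 lay above SMC1 and Intermediate without overlap, and it overlapped Progenitor. The log2 changes were 2.16 ± 0.74 over SMC1 (adjusted p = 0.0281) and 2.10 ± 0.75 over Intermediate (adjusted p = 0.0271). Both rested on few counts. The first was not called without SMC1 replicate 1 (1.64, adjusted p = 0.111), SMC1 replicate 2 (1.86, adjusted p = 0.0953), SMC2 replicate 2 (2.24, adjusted p = 0.0507) or SMC2 replicate 3 (1.75, adjusted p = 0.111), and it was 3.42 (adjusted p = 0.005) without SMC1 replicate 3. The second was not called without Intermediate replicate 1 (1.70, adjusted p = 0.107), Intermediate replicate 2 (1.94, adjusted p = 0.0881) or SMC2 replicate 3 (1.70, adjusted p = 0.102). A striated muscle list of 8 genes summed to 18.4 to 20.2 CPM in SMC2 and 10.6 to 14.2 CPM in SMC1. Acta1 alone averaged 11.5 CPM in SMC2 and 2.48 CPM in SMC1. By gene, 5 of the 8 had a higher mean in SMC2, while Myh7, Tnnt2 and Tnni3 had a higher mean in SMC1. The part of the striated muscle and mature adipocyte genes in the changes of Ucp1, Ucp2 and Ucp3 was not tested.

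The remaining relatives behaved differently from Ucp2. Slc25a30, a kidney-rich carrier close in sequence to the uncoupling proteins, averaged 6.76 CPM in SMC2, 4.85 CPM in SMC1, 8.34 CPM in Intermediate and 15.1 CPM in Progenitor, and Progenitor was higher than each other population in called changes. Its log2 change was -1.16 ± 0.21 in SMC2 (adjusted p = 0.000115), -1.64 ± 0.22 in SMC1 (adjusted p = 2.32e-06) and -0.85 ± 0.21 in Intermediate (adjusted p = 0.00577), each relative to Progenitor. Slc25a14, a brain-rich relative, was called in none of the 6 comparisons. Slc25a27, another brain-rich relative, averaged 2.36 CPM in SMC2 and 4.28 CPM in Intermediate. The change of -0.86 ± 0.31 (adjusted p = 0.0283) was not called without Intermediate replicate 2 (adjusted p = 0.112), Intermediate replicate 3 (adjusted p = 0.0649) or SMC2 replicate 2 (adjusted p = 0.145), nor with upper-quartile scaling (adjusted p = 0.0523).

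The ADP/ATP translocases and the phosphate carrier were the 3 most abundant carriers by CPM per kilobase of exon in SMC2 and SMC1, and they made up 74.6 ± 1.54% of the family in SMC2, 61.2 ± 2.02% in SMC1, 51.9 ± 1.46% in Intermediate and 55.4 ± 2.74% in Progenitor (n = 3, SD). In SMC1, Slc25a3 at 40.5 ± 0.700 and Slc25a39 at 40.1 ± 7.94 CPM per kilobase differed by less than the SD of Slc25a39. Slc25a11, the oxoglutarate carrier, and Slc25a3 differed by less than the SD of Slc25a3 in Intermediate, at 43.7 ± 6.27 and 40.3 ± 7.09 CPM per kilobase, and in Progenitor, at 37.7 ± 1.72 and 33.9 ± 4.05 CPM per kilobase. With the longest transcript as the length, the shares were 72.3% in SMC2, 59.2% in SMC1, 50.1% in Intermediate and 53.7% in Progenitor, Slc25a3 stood above Slc25a11 in Intermediate (55.4 and 54.1 CPM per kilobase), and the glutathione carrier Slc25a39 passed Slc25a3 in SMC1 and Progenitor.

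Slc25a5, the ADP/ATP translocase found in most growing tissues (chrX:36795651-36798807, plus strand, GRCm38), measured 1262, 983 and 828 CPM in SMC2, 372, 333 and 322 CPM in SMC1, 395, 283 and 256 CPM in Intermediate, and 346, 297 and 258 CPM in Progenitor. SMC2 stood apart, and the other 3 populations overlapped each other. SMC2 exceeded SMC1 by 1.58 ± 0.21 (adjusted p = 3.76e-06), Intermediate by 1.72 ± 0.21 (adjusted p = 6.44e-07) and Progenitor by 1.77 ± 0.21 (adjusted p = 4.56e-07). Processed copies of this gene are common in genomes, and how the authors' counting treated reads shared with them is not given in the sources used here. The one named in the table, Slc25a5-ps, had 1 to 10 counts per library.

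Slc25a4, the translocase typical of heart and skeletal muscle (chr8:46206797-46211284, minus strand), measured 974, 767 and 675 CPM in SMC2, 626, 538 and 520.1 CPM in SMC1, 337, 299 and 259 CPM in Intermediate, and 333, 287 and 287 CPM in Progenitor. Both smooth muscle populations lay above both others with no overlap. Against Progenitor the log2 change was 1.41 ± 0.18 in SMC2 (adjusted p = 1.98e-06) and 0.89 ± 0.18 in SMC1 (adjusted p = 0.00041). Intermediate and Progenitor did not differ by a called amount (-0.02, adjusted p = 0.955). SMC2 exceeded SMC1 by 0.52 ± 0.18 (adjusted p = 0.031). That call was lost without SMC2 replicate 1 (0.34, adjusted p = 0.192), SMC2 replicate 2 (0.55, adjusted p = 0.0694), SMC1 replicate 2 (0.47, adjusted p = 0.12) or SMC1 replicate 3 (0.45, adjusted p = 0.134), and with no filter on low counts (0.44, adjusted p = 0.146).

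The balance of these paralogues differed between the smooth muscle populations. Slc25a5 made up 64.4 ± 0.673% of their summed level per kilobase in SMC2, 46.6 ± 0.570% in SMC1, 59.6 ± 2.71% in Intermediate and 58.6 ± 2.03% in Progenitor (n = 3, SD). For SMC1 the muscle-type Slc25a4 was the more abundant of the pair, and in the other populations Slc25a5 was. That order held with the longest transcript as the length, where the shares of Slc25a5 were 66.3% in SMC2, 48.7% in SMC1, 61.5% in Intermediate and 60.6% in Progenitor.

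Slc25a3, which brings phosphate into the matrix for ATP synthesis and also carries copper, measured 622, 529.8 and 424 CPM in SMC2, 229, 224 and 222 CPM in SMC1, 268, 208 and 195 CPM in Intermediate, and 209, 192 and 164 CPM in Progenitor. Its pattern was that of Slc25a5, with SMC2 above every other library and no called difference among SMC1, Intermediate and Progenitor. The log2 change of SMC2 was 1.22 ± 0.18 over SMC1 (adjusted p = 2.15e-05), 1.23 ± 0.18 over Intermediate (adjusted p = 1.08e-05) and 1.48 ± 0.18 over Progenitor (adjusted p = 1.06e-06). The share of counts from the mitochondrial genome was 1.49 to 1.86% in SMC2, 0.972 to 1.40% in SMC1, 0.540 to 0.545% in Intermediate and 0.855 to 1.45% in Progenitor, so the 3 SMC2 libraries were also the highest for that share. The mature adipocyte genes given above moved the same way in SMC2, and their part in the changes of Slc25a3, Slc25a4 and Slc25a5 was not tested.

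**Figure D3:**
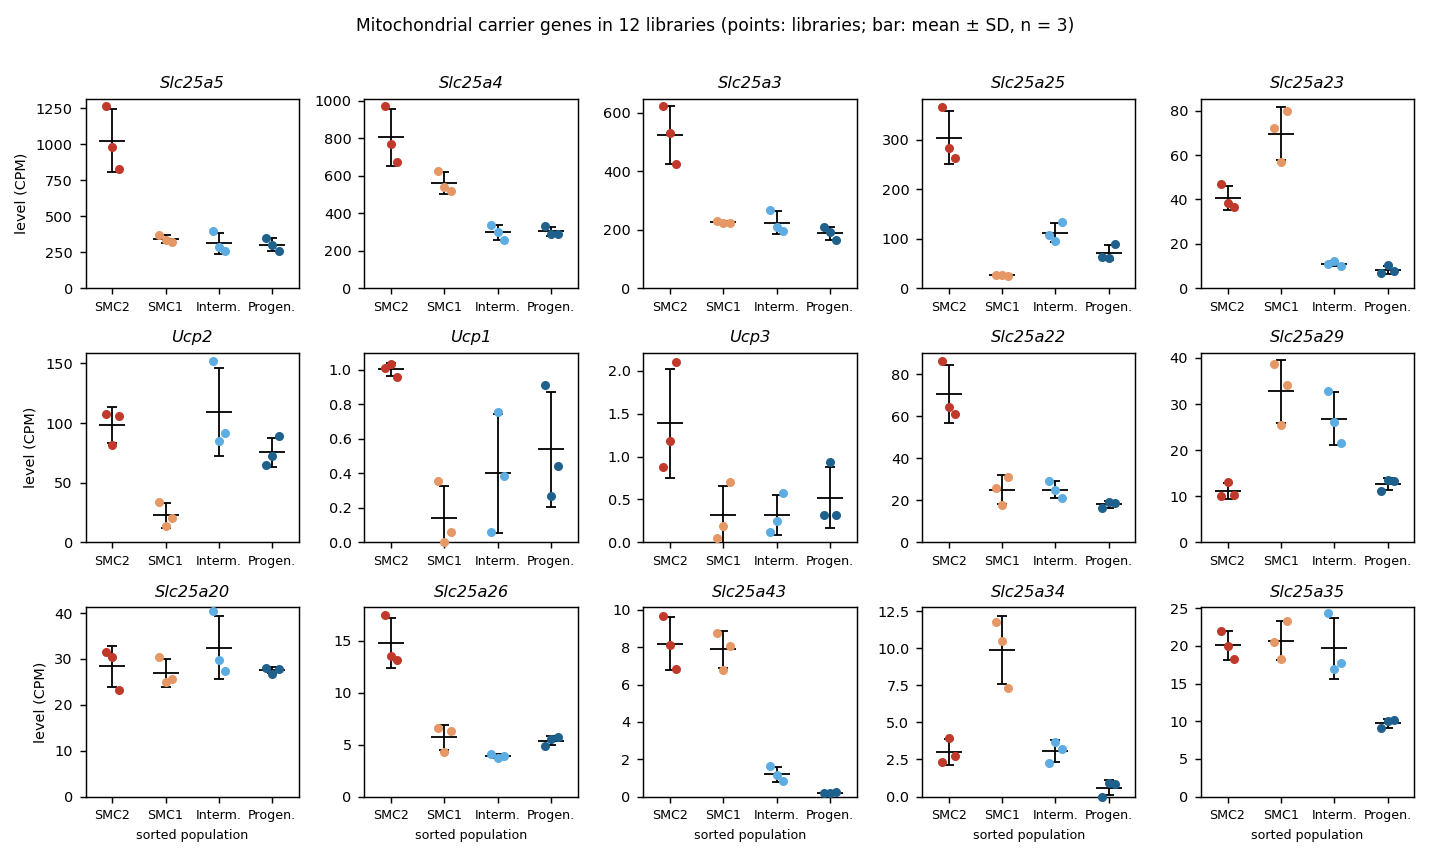
Level in CPM (vertical axes, each starting at 0) of the 15 carriers described library by library, with one point per library and bars for mean ± SD (n = 3) in SMC2, SMC1, Intermediate and Progenitor. Slc25a5 and Slc25a3 stand high in SMC2, Slc25a4, Slc25a23 and Slc25a43 in both smooth muscle populations, and Ucp2 stands low in SMC1.

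Calcium-regulated ATP-Mg/phosphate carriers, which change the total adenine nucleotide content of the matrix, differed from each other in where they were high. Slc25a25 (chr2:32414487-32451445, minus strand) measured 365, 284 and 264 CPM in SMC2, 27.3, 26.5 and 24.5 CPM in SMC1, 108, 95.4 and 133 CPM in Intermediate, and 63.8, 61.5 and 89.1 CPM in Progenitor. No population overlapped another, and the order was SMC2, Intermediate, Progenitor, SMC1. The log2 change of SMC2 was 3.54 ± 0.20 over SMC1 (adjusted p = 5.14e-11), 1.44 ± 0.19 over Intermediate (adjusted p = 1.63e-06) and 2.09 ± 0.19 over Progenitor (adjusted p = 1.07e-08). SMC1 fell below Progenitor by 1.45 ± 0.19 (adjusted p = 1.99e-06). Intermediate exceeded Progenitor by 0.65 ± 0.18 (adjusted p = 0.0147). This last call was lost without Intermediate replicate 3 (0.53, adjusted p = 0.0806), Progenitor replicate 1 (0.59, adjusted p = 0.0641) or Progenitor replicate 2 (0.57, adjusted p = 0.0706).

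Slc25a23 (chr17:57043711-57059863, minus strand) had another distribution. It measured 47.1, 38.3 and 36.8 CPM in SMC2, 72.2, 56.7 and 80.1 CPM in SMC1, 10.7, 12.2 and 9.96 CPM in Intermediate, and 6.65, 10.3 and 7.77 CPM in Progenitor. Both smooth muscle populations were high, SMC1 above SMC2, with no overlap between them. The log2 change over Progenitor was 2.31 ± 0.19 in SMC2 (adjusted p = 3.48e-09) and 3.08 ± 0.20 in SMC1 (adjusted p = 6.54e-11). SMC2 fell below SMC1 by 0.77 ± 0.18 (adjusted p = 0.00196), opposite in direction to Slc25a25.

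Slc25a24, the third of these paralogues and a broadly expressed one, measured 63.0, 56.9 and 47.7 CPM in SMC2, 37.8, 35.6 and 40.4 CPM in SMC1, 96.0, 78.9 and 72.5 CPM in Intermediate, and 75.2, 68.6 and 71.4 CPM in Progenitor. It was lowest in SMC1, below Progenitor by 0.92 ± 0.16 (adjusted p = 6.16e-05) and below Intermediate by 1.12 ± 0.16 (adjusted p = 6.89e-06). SMC2 exceeded SMC1 by 0.56 ± 0.16 (adjusted p = 0.00841), a call lost without SMC2 replicate 1 (adjusted p = 0.0574), without SMC1 replicate 2 (adjusted p = 0.0575) and with no filter on low counts (adjusted p = 0.0809).

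Per kilobase of exon, Slc25a25 held 61.6 ± 1.38% of the summed level of the 3 paralogues in SMC2, 12.2 ± 1.71% in SMC1, 35.4 ± 6.05% in Intermediate and 28.7 ± 4.39% in Progenitor (SD, n = 3). Slc25a23 held 12.3% in SMC2, 47.6% in SMC1, 5.17% in Intermediate and 4.98% in Progenitor. Slc25a24 held 26.1% in SMC2, 40.3% in SMC1, 59.4% in Intermediate and 66.4% in Progenitor. The leading paralogue was therefore Slc25a25 in SMC2, Slc25a23 in SMC1 and Slc25a24 in Intermediate and Progenitor. With the longest transcript as the length, Slc25a25 led in Intermediate, at 51.7% beside 42.5% for Slc25a24, and the leaders of the other populations did not change.

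**Figure D4:**
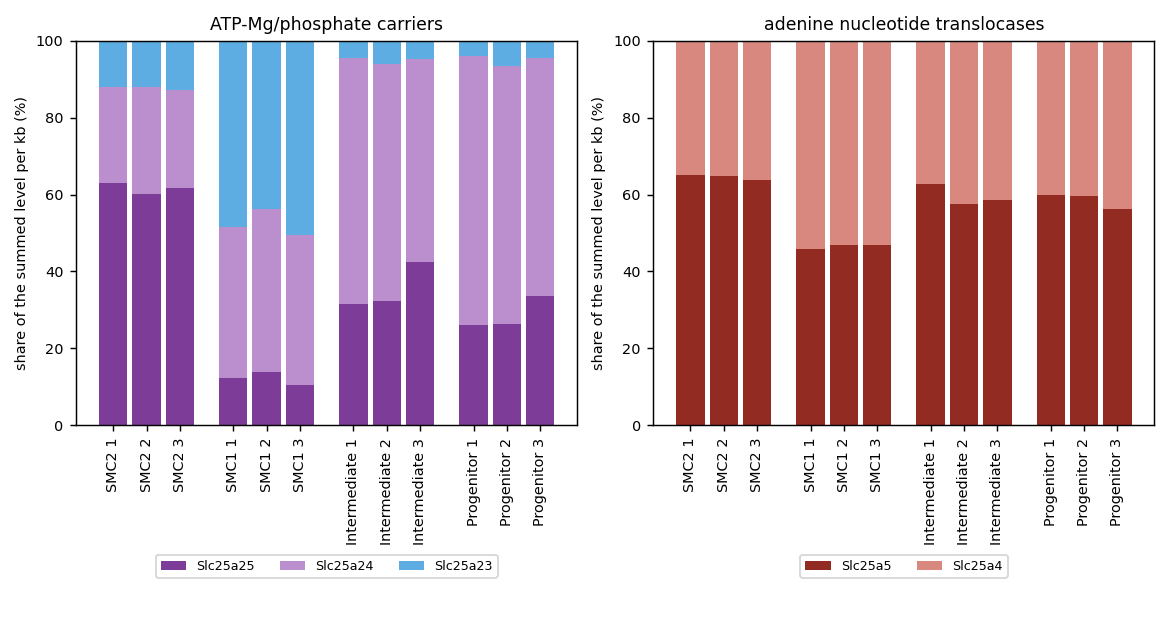
Shares of the summed level per kilobase of exon (vertical axes, percent) in each library, for Slc25a5 and Slc25a4 and for Slc25a25, Slc25a23 and Slc25a24. Slc25a5 falls below Slc25a4 in the 3 SMC1 libraries, and Slc25a25 takes on average 61.6% in SMC2 and 12.2% in SMC1.

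Since Slc25a25 and Slc25a23 moved in opposite directions between the smooth muscle populations, the 250 bases before a listed start of each are shown, as given by RefSeq for GRCm38.p6. RefSeq sequence was matched for 39 of the 50 genes, with 49 start sites. Slc25a25 has 3 listed starts, and counts per gene do not tell which was used. The windows of starts 1 and 2 held none of the motifs searched, and start 3 is shown because it held one. The capitals mark TGACGTCA, the cyclic AMP response element, in the Slc25a25 sequence (chr2:32424067-32424316, minus strand) and a CArG box, the serum response factor element, in the Slc25a23 sequence (chr17:57059864-57060113, minus strand).
Slc25a25, start 3: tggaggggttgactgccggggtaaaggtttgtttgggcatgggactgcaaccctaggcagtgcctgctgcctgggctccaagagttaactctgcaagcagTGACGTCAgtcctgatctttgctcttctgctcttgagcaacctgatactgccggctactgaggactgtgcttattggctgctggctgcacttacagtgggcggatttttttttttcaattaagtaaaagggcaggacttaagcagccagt
Slc25a23, start 1: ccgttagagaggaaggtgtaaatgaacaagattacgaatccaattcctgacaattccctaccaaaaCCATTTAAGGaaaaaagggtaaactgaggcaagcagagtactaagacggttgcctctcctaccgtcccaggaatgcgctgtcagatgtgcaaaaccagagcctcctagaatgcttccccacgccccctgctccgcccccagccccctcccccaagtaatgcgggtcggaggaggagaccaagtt

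Searched on both strands, TGACGTCA was present in 1.55% of 32851 promoter windows of this length and, among the carriers, in those of Slc25a25 and Slc25a36. Slc25a36 was lower in SMC2 than in SMC1 (-0.64, adjusted p = 0.00976), opposite in direction to Slc25a25, in a call lost on leaving out single libraries. The CArG box was present in 1.47% of windows and, among the carriers, in those of Slc25a23. The E-box CACGTG was present in 6.02% of windows and in 7 of the 39 carriers with sequence. The half-site TGACG was present in 17.8% of windows and in 12 of these carriers. A carrier was counted if any of its windows matched, so counts of carriers and shares of windows differ in unit. No carrier window held TCAAGGTCA, the element of estrogen-related receptors (0.387% of windows). These are matches of letters only, and their part in the changes of the carriers was not tested.

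Of the other adenine nucleotide carriers, Slc25a31, the germ cell translocase, stayed at or below 1.69 CPM on average, and Slc25a17, the peroxisomal member, was called in none of the 6 comparisons. Slc25a31 averaged 0.380 CPM in SMC2, 0.354 CPM in SMC1, 1.15 CPM in Intermediate and 1.69 CPM in Progenitor, with log2 changes below Progenitor of -2.11 ± 0.49 in SMC2 (adjusted p = 0.0014) and -2.22 ± 0.50 in SMC1 (adjusted p = 0.00098).

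Of the 4 di- and tricarboxylate carriers, 1 rose and 1 fell in SMC1 relative to Progenitor (25.3% and 23.1% of all tested genes). In SMC2 relative to Progenitor, 1 fell (21.7% of all tested genes). Slc25a11, which exchanges oxoglutarate for malate in the malate-aspartate shuttle, averaged 91.9 CPM in SMC2, 70.4 CPM in SMC1, 92.5 CPM in Intermediate and 79.8 CPM in Progenitor. Its change in SMC1 relative to Intermediate was -0.39 ± 0.15 (adjusted p = 0.0425), and it was not called without Intermediate replicate 1 (adjusted p = 0.24), Intermediate replicate 2 (adjusted p = 0.087), SMC1 replicate 1 (adjusted p = 0.088), SMC1 replicate 2 (adjusted p = 0.205) or SMC1 replicate 3 (adjusted p = 0.139), nor with no filter on low counts (adjusted p = 0.243). Slc25a1, which exports citrate for lipid synthesis, averaged 48.0 CPM in SMC2, 61.8 CPM in SMC1, 49.6 CPM in Intermediate and 45.4 CPM in Progenitor. Its only called change, 0.45 ± 0.17 in SMC1 over Progenitor (adjusted p = 0.036), was not called under 9 of 12 alternatives, among them leaving out SMC1 replicate 1 (0.24, adjusted p = 0.345), SMC1 replicate 3 (adjusted p = 0.136), Progenitor replicate 1 (adjusted p = 0.0933) or Progenitor replicate 2 (adjusted p = 0.0793). Slc25a10, the dicarboxylate carrier, averaged 11.1 to 13.4 CPM and was not called. Slc25a21, the oxodicarboxylate carrier, averaged 0.825 CPM in SMC2, 1.28 CPM in SMC1 and Intermediate and 3.06 CPM in Progenitor. SMC2 fell below Progenitor by 1.90 ± 0.44 (adjusted p = 0.00135).

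Of the amino acid and carnitine carriers, 3 of 10 rose and 2 fell in SMC2 relative to SMC1 (16.5% and 18.1% of all tested genes). Slc25a22, which carries glutamate into the matrix, measured 86.4, 64.5 and 61.1 CPM in SMC2, 25.9, 17.7 and 31.3 CPM in SMC1, 29.0, 25.1 and 21.1 CPM in Intermediate, and 16.2, 19.3 and 18.7 CPM in Progenitor. SMC2 was the high population and overlapped none of the others. The log2 change was 1.50 ± 0.20 over SMC1 (adjusted p = 5e-06), 1.50 ± 0.20 over Intermediate (adjusted p = 2.77e-06) and 1.97 ± 0.20 over Progenitor (adjusted p = 7.98e-08).

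Slc25a29, which carries basic amino acids, had a different arrangement, with 9.99, 13.0 and 10.2 CPM in SMC2, 38.7, 25.4 and 34.1 CPM in SMC1, 32.9, 26.1 and 21.5 CPM in Intermediate, and 11.2, 13.5 and 13.3 CPM in Progenitor. SMC1 and Intermediate were high and overlapped each other, and SMC2 and Progenitor were low and overlapped each other. SMC2 fell below SMC1 by 1.56 ± 0.20 (adjusted p = 2.75e-06), and Intermediate rose above Progenitor by 1.09 ± 0.20 (adjusted p = 0.000449). SMC1 rose above Progenitor by 1.37 ± 0.20 (adjusted p = 7.71e-06), and SMC2 did not differ from Progenitor by a called amount (-0.19, adjusted p = 0.476).

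The aspartate/glutamate carriers of the malate-aspartate shuttle differed in level. Slc25a12, the form of heart, brain and muscle, averaged 78.3 CPM in SMC2, 56.8 CPM in SMC1, 77.5 CPM in Intermediate and 48.0 CPM in Progenitor, and it exceeded Progenitor by 0.71 ± 0.17 in SMC2 (adjusted p = 0.00203) and by 0.69 ± 0.17 in Intermediate (adjusted p = 0.00651). Its rise of 0.47 ± 0.17 in SMC2 over SMC1 (adjusted p = 0.0413) was not called without SMC2 replicate 1 (0.29, adjusted p = 0.23), SMC2 replicate 2 (adjusted p = 0.111), SMC1 replicate 1 (adjusted p = 0.108), SMC1 replicate 2 (adjusted p = 0.147) or SMC1 replicate 3 (adjusted p = 0.0883), nor with no filter on low counts (adjusted p = 0.173). Slc25a13, the liver form, averaged 2.82 CPM in SMC2, 0.810 CPM in SMC1, 0.718 CPM in Intermediate and 1.06 CPM in Progenitor. SMC2 exceeded SMC1 by 1.78 ± 0.43 (adjusted p = 0.00266) and Progenitor by 1.41 ± 0.42 (adjusted p = 0.00981).

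Slc25a38, which supplies glycine for heme synthesis, averaged 24.6 CPM in SMC2, 44.1 CPM in SMC1, 31.3 CPM in Intermediate and 22.9 CPM in Progenitor. SMC2 fell below SMC1 by 0.84 ± 0.15 (adjusted p = 0.000133). Slc25a15, the ornithine carrier of the urea cycle, averaged 12.4 CPM in SMC2 and 9.03 CPM in SMC1, against 22.7 CPM in Intermediate and 19.0 CPM in Progenitor. Relative to Progenitor it fell by 1.07 ± 0.19 in SMC1 (adjusted p = 0.00011) and by 0.61 ± 0.19 in SMC2 (adjusted p = 0.0126), and the second change was not called without Progenitor replicate 3 (adjusted p = 0.106).

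Slc25a20, the carnitine/acylcarnitine carrier through which long-chain fatty acids enter the matrix, was flat. It measured 31.5, 30.5 and 23.2 CPM in SMC2, 30.4, 24.9 and 25.5 CPM in SMC1, 40.4, 29.8 and 27.3 CPM in Intermediate, and 28.0, 26.8 and 27.9 CPM in Progenitor. All 4 populations overlapped, and its log2 changes over the 6 comparisons lay between -0.27 and 0.24. Slc25a44, which carries branched-chain amino acids and is known from brown fat, and Slc25a2 and Slc25a18, which were near the floor of detection, were also called in none of the 6.

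Among the 12 cofactor, nucleotide, metal and glutathione carriers, 1 rose and 2 fell in SMC2 relative to SMC1 (16.5% and 18.1% of all tested genes). Relative to Progenitor, 6 rose and 2 fell in SMC2 (23.1% and 21.7% of all tested genes). Among these 6, Slc25a33 lost the call without SMC2 replicate 2 (adjusted p = 0.0699), and the loss for Slc25a39 is given below. Slc25a26, which brings S-adenosylmethionine into the matrix, was the riser in the first comparison. It measured 17.5, 13.6 and 13.2 CPM in SMC2, 6.57, 4.34 and 6.27 CPM in SMC1, 4.10, 3.70 and 3.90 CPM in Intermediate, and 4.88, 5.53 and 5.75 CPM in Progenitor. SMC2 stood above every other library, by 1.37 ± 0.22 over SMC1 (adjusted p = 3.98e-05), 1.92 ± 0.23 over Intermediate (adjusted p = 4.31e-07) and 1.46 ± 0.22 over Progenitor (adjusted p = 1.18e-05).

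Slc25a32, known as a carrier of folate and flavin adenine dinucleotide, was the one carrier lower in SMC2 than in each other population, a pattern of 6.92% of all genes, at 28.1 CPM in SMC2, 54.3 CPM in SMC1, 53.6 CPM in Intermediate and 42.1 CPM in Progenitor. The log2 change was -0.95 ± 0.17 relative to SMC1 (adjusted p = 0.000153) and -0.58 ± 0.17 relative to Progenitor (adjusted p = 0.00746). Slc25a36, a pyrimidine nucleotide carrier, averaged 47.0 CPM in SMC2 and 73.0 CPM in SMC1. Its change of -0.64 ± 0.18 (adjusted p = 0.00976) was not called without SMC1 replicate 2 (adjusted p = 0.0706) or SMC2 replicate 3 (adjusted p = 0.0594).

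Several members of this group were lowest in Progenitor. Slc25a16, linked to coenzyme A transport, averaged 31.1 CPM in SMC2, 30.4 CPM in SMC1, 37.2 CPM in Intermediate and 19.0 CPM in Progenitor. Its log2 change over Progenitor was 0.71 ± 0.17 in SMC2 (adjusted p = 0.00146), 0.68 ± 0.17 in SMC1 (adjusted p = 0.00229) and 0.97 ± 0.17 in Intermediate (adjusted p = 0.000276). Slc25a40, a glutathione carrier, averaged 24.1 CPM in SMC2, 22.2 CPM in SMC1, 24.2 CPM in Intermediate and 14.3 CPM in Progenitor, with a change in Intermediate of 0.75 ± 0.18 (adjusted p = 0.00408). Its paralogue Slc25a39 was more abundant, at 131 CPM in SMC2, 110.5 CPM in SMC1, 85.1 CPM in Intermediate and 83.1 CPM in Progenitor. Slc25a39 exceeded Progenitor in SMC2 by 0.65 ± 0.19 (adjusted p = 0.00831), a call lost without SMC2 replicate 1 (0.43, adjusted p = 0.11).

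The iron importer Slc25a28 averaged 8.69 CPM in SMC2, 11.5 CPM in SMC1, 15.6 CPM in Intermediate and 15.5 CPM in Progenitor, with SMC2 at -0.83 ± 0.22 relative to Progenitor on the log2 scale (adjusted p = 0.00453). Slc25a37, the other iron importer, at 5.70 to 8.68 CPM on average, was called in none of the 6 comparisons, nor was Slc25a51, which carries NAD. Slc25a33, a pyrimidine nucleotide carrier that shares 14.9% of its exon bases with the gene model Gm13068, rose by 0.89 ± 0.25 in SMC1 over Progenitor (adjusted p = 0.00539), at 8.49 CPM in SMC1 and 4.60 CPM in Progenitor. Slc25a42, which carries coenzyme A, averaged 9.15 CPM in SMC1 and 18.7 CPM in Intermediate, a change of -1.03 ± 0.20 (adjusted p = 0.000239).

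Members without a settled substrate held the changes of greatest size among comparisons with Progenitor. Slc25a43 (chrX:36743659-36777202, plus strand), an orphan carrier, had 210, 164 and 114 counts in SMC2, 172, 146 and 138 in SMC1, 26, 18 and 13 in Intermediate, and 4, 3 and 4 in Progenitor. In CPM these were 9.66, 8.10 and 6.84 in SMC2, 8.75, 6.81 and 8.08 in SMC1, 1.62, 1.13 and 0.830 in Intermediate, and 0.182, 0.200 and 0.253 in Progenitor. SMC2 and SMC1 overlapped, both lay above Intermediate, and Intermediate lay above Progenitor. The log2 change over Progenitor was 5.25 ± 0.37 in SMC2 (adjusted p = 2.37e-10), 5.19 ± 0.37 in SMC1 (adjusted p = 2.99e-10) and 2.47 ± 0.42 in Intermediate (adjusted p = 0.000212). SMC2 and SMC1 did not differ by a called amount (0.06 ± 0.25, adjusted p = 0.878). The smooth muscle marker sums of Intermediate and Progenitor, given above, overlapped. By gene, 6 of the 8 on that list had a higher mean in Intermediate, all but Cnn1 and Synpo2. The part of these genes in the changes of Slc25a43 was not tested.

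Slc25a34 (chr4:141618824-141623821, minus strand), whose substrate is not established, measured 2.30, 3.95 and 2.76 CPM in SMC2, 11.8, 10.5 and 7.32 CPM in SMC1, 2.24, 3.70 and 3.19 CPM in Intermediate, and 0, 0.933 and 0.821 CPM in Progenitor. The counts behind the Progenitor values were 0, 14 and 13, and the 0 allows up to 0.136 CPM. SMC1 was the high population, Progenitor the low one, and SMC2 and Intermediate overlapped. SMC2 fell below SMC1 by 1.71 ± 0.46 (adjusted p = 0.00803), and SMC2 rose above Progenitor by 2.46 ± 0.57 (adjusted p = 0.00188). SMC1 exceeded Progenitor by 4.17 ± 0.56 (adjusted p = 8.69e-06), and Intermediate exceeded it by 2.48 ± 0.58 (adjusted p = 0.00514).

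Slc25a35, another carrier without an established substrate, separated Progenitor from the rest. It measured 22.0, 20.0 and 18.2 CPM in SMC2, 20.6, 18.2 and 23.4 CPM in SMC1, 24.4, 16.9 and 17.8 CPM in Intermediate, and 9.07, 10.0 and 10.1 CPM in Progenitor. The log2 change over Progenitor was 1.05 ± 0.18 in SMC2 (adjusted p = 6.17e-05), 1.09 ± 0.18 in SMC1 (adjusted p = 4.06e-05) and 1.02 ± 0.18 in Intermediate (adjusted p = 0.000346). In the annotation, 31.3% of its exon bases are shared with Rangrf on the opposite strand, and the kit does not mark strand, so part of these reads may belong to Rangrf.

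Slc25a45 was the one carrier lower in Intermediate than in each other population, a pattern of 2.1% of all genes, at 2.58 CPM in SMC2, 2.29 CPM in SMC1, 0.969 CPM in Intermediate and 3.86 CPM in Progenitor. Intermediate fell below Progenitor by 1.99 ± 0.40 (adjusted p = 0.00102). SMC1 exceeded Intermediate by 1.23 ± 0.40 (adjusted p = 0.0182), which was not called without SMC1 replicate 3 (adjusted p = 0.067) or Intermediate replicate 1 (adjusted p = 0.0868). Slc25a53, an orphan carrier, averaged 7.94 CPM in SMC2, 12.1 CPM in SMC1, 12.2 CPM in Intermediate and 8.24 CPM in Progenitor. Its change of -0.60 ± 0.20 in SMC2 relative to SMC1 (adjusted p = 0.0278) was not called without SMC2 replicate 1 (adjusted p = 0.0751), SMC2 replicate 3 (adjusted p = 0.139), SMC1 replicate 2 (adjusted p = 0.0786) or SMC1 replicate 3 (adjusted p = 0.071), nor with upper-quartile scaling (adjusted p = 0.074) or a fit on those 2 groups alone (adjusted p = 0.0555). Slc25a46, an outer membrane protein of mitochondrial shape rather than a carrier, was called in none of the 6 comparisons at 81.9 to 106 CPM.

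Relative to Progenitor, 17 carriers were higher and 6 lower in SMC2 (background 23.1% higher and 21.7% lower), and 14 were higher and 8 lower in SMC1 (background 25.3% and 23.1%). Relative to Intermediate, 12 were higher and 10 lower in SMC2 (21.4% and 23.2%), and 7 were higher and 9 lower in SMC1 (19.7% and 21.9%). Over all genes the SMC1 minus Progenitor calls split into 4804 higher and 4390 lower, and under upper-quartile scaling into 3783 higher and 5378 lower, with 12 carriers each way. These comparisons share the same Progenitor and Intermediate libraries and are not independent of each other. Across the 4 populations, 33 of the 47 carriers differed, beside 66.2% of all tested genes, so the family as a whole was called about as often as other genes.

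Carriers above every other population in called changes were commonest for SMC2. These were Slc25a3, Slc25a4, Slc25a5, Slc25a13, Slc25a22, Slc25a25 and Slc25a26, 7 of 47 beside 7.46% of all genes. For SMC1 they were Slc25a23, Slc25a34 and Slc25a38 (6.34% of all genes), for Progenitor Slc25a21 and Slc25a30 (4.53%), and for Intermediate none (4.03%). Slc25a16, Slc25a34, Slc25a35, Slc25a40 and Slc25a43 were lower in Progenitor than in each other population (4.38%). Slc25a4, Slc25a23 and Slc25a43 were higher in both smooth muscle populations than in both others (8.42%), and Slc25a15 and Slc25a31 were lower in both (9.7%). Ucp2, Slc25a24 and Slc25a25 were lower in SMC1 than in each other population (5.65%). Slc25a29, Slc25a34 and Slc25a38 were lower in SMC2 than in SMC1 and higher in Intermediate than in Progenitor (5.48%), while Slc25a12 and Slc25a25 were higher in the first of each pair (1.55%). Some of these groupings rest on calls that did not survive leaving out 1 library, besides those given with their genes above. For Slc25a21 in Intermediate relative to Progenitor, whose libraries overlapped, adjusted p was 0.184 without Intermediate replicate 2, 0.114 without Intermediate replicate 3, 0.197 without Progenitor replicate 1 and 0.113 without Progenitor replicate 2. For Slc25a21 in SMC1 relative to Progenitor it was 0.0667 without SMC1 replicate 3, 0.116 without Progenitor replicate 1 and 0.0622 without Progenitor replicate 2. For Slc25a38 in Intermediate relative to Progenitor it was 0.121 without Intermediate replicate 1, 0.0931 without Intermediate replicate 2, 0.132 without Progenitor replicate 1 and 0.0579 without Progenitor replicate 3. For Slc25a38 in SMC1 relative to Intermediate it was 0.0511 without Intermediate replicate 2 and 0.0664 without Intermediate replicate 3. Slc25a40 in SMC1 relative to Progenitor had 0.0553 without SMC1 replicate 2 and 0.0552 without SMC1 replicate 3. Slc25a31 relative to Intermediate had 0.0554 in SMC2 without SMC2 replicate 3, 0.0593 in SMC2 without Intermediate replicate 1 and 0.0548 in SMC1 without SMC1 replicate 3.

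**Figure D5:**
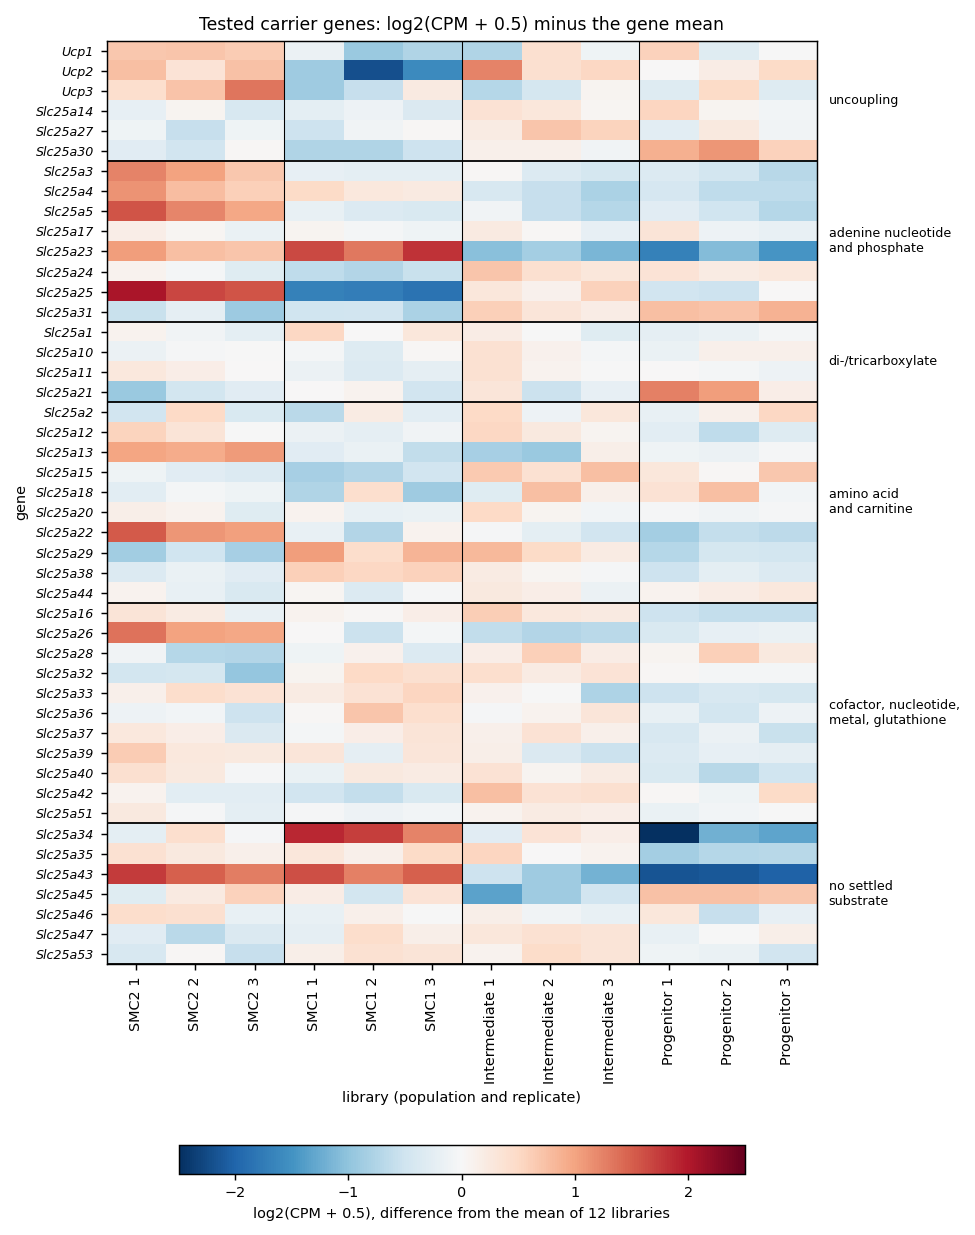
Heat map of 46 tested carriers (lines, grouped by role) in the 12 libraries (columns), coloured by log2(CPM + 0.5) minus the gene's mean. The SMC2 columns are high for Slc25a3, Slc25a4, Slc25a5, Slc25a22, Slc25a25 and Slc25a26, and the Progenitor columns are low for Slc25a34, Slc25a35 and Slc25a43.

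Pairs of carriers that are neighbours in the genome did not always share a pattern. Slc25a43 and Slc25a5 lie 18448 bases apart on the X chromosome with no protein-coding gene between them, yet Slc25a43 did not differ between SMC2 and SMC1 and Slc25a5 rose in SMC2. The sequences before their starts are shown for this contrast (Slc25a43 at chrX:36743382-36743631 and Slc25a5 at chrX:36795347-36795596, plus strand, RefSeq, GRCm38.p6). Neither window held any of the motifs searched, so no base is in capitals.
Slc25a43: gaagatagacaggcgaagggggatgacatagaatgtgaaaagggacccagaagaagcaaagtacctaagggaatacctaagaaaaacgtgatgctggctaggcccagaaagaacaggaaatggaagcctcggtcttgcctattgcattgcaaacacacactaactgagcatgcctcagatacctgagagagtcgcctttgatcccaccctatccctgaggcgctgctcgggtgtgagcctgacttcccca
Slc25a5: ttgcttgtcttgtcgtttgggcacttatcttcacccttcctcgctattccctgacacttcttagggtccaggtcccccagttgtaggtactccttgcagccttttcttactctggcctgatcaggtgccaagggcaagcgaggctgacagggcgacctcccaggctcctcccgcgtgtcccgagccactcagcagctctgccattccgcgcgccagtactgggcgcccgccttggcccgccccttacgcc

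Ucp3 and Ucp2 lie 6904 bases apart on chromosome 7, and both rose in SMC2 relative to SMC1. Slc25a29 and Slc25a47 start 162 bases apart on opposite strands of chromosome 12. Slc25a29 fell in SMC2 relative to SMC1, and Slc25a47, a liver carrier, averaged 2.15 CPM in SMC2 and 3.45 CPM in SMC1 (log2 change -0.68, adjusted p = 0.0765).

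Genes that work with the carriers were examined by list. Of 21 tested partner enzymes, 9 rose and 5 fell in SMC2 relative to SMC1, where 16.5% of all tested genes rose and 18.1% fell. Risers included Mdh2 (0.92 ± 0.18) and Got1 (1.30 ± 0.20) of the malate-aspartate shuttle, citrate synthase Cs (0.96 ± 0.21) and creatine kinase Ckb (1.48 ± 0.22). Malic enzyme Me1 fell, to 38.1 CPM in SMC2 against 173 CPM in SMC1 (-2.18 ± 0.19). In Intermediate relative to Progenitor, 3 of the 21 rose and 4 fell, beside 12.7% and 9.46% of all tested genes, with Ckb at 258 CPM in Intermediate and 97.8 CPM in Progenitor.

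Of 14 tested regulators of mitochondrial biogenesis, 5 rose and none fell in SMC2 relative to SMC1, beside the same 16.5% and 18.1% of all tested genes. The risers were Ppargc1a, Ppargc1b, Esrra, Ppara and Pparg, while Nrf1, Gabpa, Tfam, Polg and Polrmt were among the 9 not called. Esrra (0.70 ± 0.27, adjusted p = 0.0498) and Ppara (0.63 ± 0.23, adjusted p = 0.0435) lay just below the threshold of 0.05. Fits without single libraries are not given for this list. Pparg, the regulator of adipocyte differentiation, averaged 366 CPM in SMC2 and 8.17 CPM in SMC1 (5.48 ± 0.32, adjusted p = 8.64e-10). Ppargc1a, the coactivator that drives mitochondrial gene programs in brown fat and muscle, averaged 31.4 ± 8.55 CPM in SMC2, 7.76 ± 0.594 CPM in SMC1, 6.81 ± 1.37 CPM in Intermediate and 1.30 ± 0.420 CPM in Progenitor (SD, n = 3). It was higher in SMC2 than in SMC1 by 2.02 ± 0.23 and higher in Intermediate than in Progenitor by 2.38 ± 0.27. In Intermediate relative to Progenitor, 2 of the 14 regulators rose and 1 fell (12.7% and 9.46% of all tested genes).

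Genes of the machinery that inserts carriers into the inner membrane were examined in the same way. Of 12 tested import genes, Agk rose in SMC2 relative to SMC1 (0.52 ± 0.18) and none fell, against 16.5% and 18.1% of all tested genes. In Intermediate relative to Progenitor (12.7% and 9.46% of all tested genes) none rose and 4 small chaperones of the intermembrane space fell, Timm8a1 (-1.53 ± 0.23), Timm8b (-1.17 ± 0.20), Timm10 (-1.08 ± 0.18) and Timm9 (-0.83 ± 0.21). Among 22 other transport genes of mitochondrial membranes, 2 rose and 2 fell in SMC2 relative to SMC1, shares of 9.09% each way beside 16.5% and 18.1%. Vdac1, the outer membrane pore, rose by 0.70 ± 0.19 and the serine carrier Sfxn1 by 1.31 ± 0.16, while Tspo and Sfxn3 fell, Sfxn3 by 0.78 ± 0.20. The pyruvate carrier subunits Mpc1 and Mpc2 were not called in that comparison (0.07, adjusted p = 0.75, and 0.17, adjusted p = 0.448).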

How the data were processed

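Per the labels' protocols, RNA from sorted cells was amplified with SMART-Seq v4, which is poly(A)-primed and full length and does not mark strand. The authors deposited raw counts as whole numbers per gene. The deposited normalized counts, a signal, are these counts over a size factor, and recomputation gave the deposited values within a relative 4.97e-10. Per the submitters' processing notes, STAR 2.5.2a and DESeq2 1.26.0 were used with mm10. The counting program and annotation are not given in the sources used here.

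The test ran in R 4.3.3 on the raw counts with edgeR 4.0.16 and limma 3.58.1: filterByExpr, TMM, a mean per population over 12 libraries, robust dispersions (common BCV 0.206, 8 residual degrees of freedom) and a two-sided quasi-likelihood F test, adjusted by Benjamini-Hochberg over 19016 genes. The standard error is the size of the log2 change divided by the square root of F. Levels per kilobase use exon-union lengths of GENCODE M21 (GRCm38), which matched 50 of the 50 carriers. Amplified fragments are not independent molecules, so limits from counts of 0 (3 counts) cover counting error only. Replicates differed by more than sampling noise (chi-square per degree of freedom at least 9.67).

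Carriers given library by library were Ucp1, Ucp2, Ucp3, Slc25a3, Slc25a4, Slc25a5 and Slc25a20, those called in SMC2 minus SMC1 or Intermediate minus Progenitor with a log2 change of at least 1 and a mean of at least 4 CPM in the higher group, and those called in SMC1 or SMC2 minus Progenitor with at least 2. Slc25a24 was added with its paralogues after its values were seen. Values of 1 tested carrier are not reported here, though counts include it. The members and all gene lists were chosen with earlier results of these data known.

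Same-numbered libraries correlated in their deviations at 0.17 to 0.19 for Intermediate and Progenitor, which were taken as paired by the data. No other comparison had every correlation above 0.1. The main fit, which gave the changes and adjusted p-values of the Results, held no term for this pairing. It entered only as the replicate block, an alternative. Alternatives were RLE and upper-quartile scaling, no filter, DESeq2 1.42.0, a fit on 2 groups, a replicate block, and leaving out each library.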

Additional observations from a re-analysis of the deposited data

How the results depend on the processing

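Counts of called carriers stayed within 1.5 times their value under every alternative run. Leaving out single libraries gave 8 to 12 higher and 5 to 8 lower for SMC2 minus SMC1, 7 to 8 and 2 to 3 for Intermediate minus Progenitor, 11 to 14 and 7 to 10 for SMC1 minus Progenitor, 15 to 18 and 5 to 8 for SMC2 minus Progenitor, 5 to 9 and 6 to 10 for SMC1 minus Intermediate, 10 to 12 and 7 to 9 for SMC2 minus Intermediate, and 31 to 35 across the 4 populations. Upper-quartile scaling moved the median log2 change of all genes by 0.11 for SMC2 minus SMC1, -0.16 for Intermediate minus Progenitor and -0.18 for SMC1 minus Progenitor. No called change of the 15 carriers chosen by the naming rule reversed in 612 refitted values, and 17 lost the call, in 5 changes named above; the cause was not tested. Slc25a24, which is not among the 15, lost its call in SMC2 over SMC1 under 3 alternatives. Over the 114 calls in the family, 81 were kept under each alternative. Slc25a38 in Intermediate over Progenitor (0.45) was lost under RLE (adjusted p = 0.0671) and upper-quartile scaling (0.29, adjusted p = 0.146), with no filter on low counts (0.41, adjusted p = 0.225) and in a fit on those 2 groups alone (0.35, adjusted p = 0.156). With the replicate block, 10 carriers were higher and 3 lower in Intermediate than in Progenitor, and Slc25a53 gained the call (0.55, adjusted p = 0.0431, against 0.56 and 0.0578); with the block, SMC2 minus SMC1 had 14 higher and 7 lower. The labels number the libraries alike in all 4 populations and do not set Intermediate and Progenitor apart from the other comparisons. For SMC2 and Intermediate, the deviations of same-numbered libraries correlated at 0.233 for replicate 1, -0.005 for replicate 2 and 0.346 for replicate 3. Depth limits Ucp1, Ucp3, Slc25a2, Slc25a18 and Slc25a31.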
